A study of Mus musculus with 6 samples.

Results

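The annexins are a family of proteins that bind acidic phospholipids of membranes when calcium is present, through a conserved core of repeats, while a short and variable amino-terminal tail binds partners such as S100 proteins. They are known for bridging membranes in exocytosis and endosome traffic, for patching wounds of the plasma membrane, and, for annexin A5, for recognising phosphatidylserine on dying cells. In melanoma and other tumours they have been studied at the cell surface and in invasion.

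Levels of *Anxa1*, *Anxa2*, *Anxa3*, *Anxa4*, *Anxa5*, *Anxa6*, *Anxa7*, *Anxa8*, *Anxa10* and *Anxa11* were followed in 4434, a mouse melanoma cell line carrying a *Braf* mutation. A member was measured where a probe set (a group of short array probes read as 1 value) was annotated to that gene alone. This held for 9 of 10 genes, with 21 probe sets of the 34945 with 1 gene. *Anxa11* had none. Where a gene had several probe sets, the one with the highest mean over all arrays stood for the gene, giving 9 annexin genes among 18193 genes.

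Both groups carried a doxycycline-inducible lentiviral vector for *Oct4*, *Sox2*, *Klf4* and blasticidin resistance, and another vector for the doxycycline-dependent transactivator. The + dox cells were kept in doxycycline, selected with blasticidin and collected at day 20 as partially reprogrammed cells (3 arrays). The − dox cells held the same vectors without doxycycline and were collected on the same day (3 arrays), and the sources do not say whether they were selected. Effects of doxycycline, of the 3 factors and of any difference in selection therefore cannot be told apart. All arrays came from 1 line, and the sources used here do not say whether the arrays of a group were separate cultures, and p-values rest on a spread between arrays that may be technical. RNA came from whole cultures, in which fewer cells of a type and less RNA per cell cannot be told apart.

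Values are log2 expression values. Lower quartiles of the arrays lay between 3.84 and 3.90 and medians between 5.33 and 5.37, which is the range against which a dim probe set can be read. On the first principal component (63.2% of the variance) the groups lay apart, + dox 1 being nearest to the − dox arrays. Over all genes + dox 1 correlated at 0.9867 and 0.9839 with + dox 2 and 3. With − dox 1, 2 and 3 its correlations were 0.9756, 0.9860 and 0.9841, so it was as like − dox 2 and 3 as + dox 3. On the second (20.0%) − dox 1 stood apart, at −40.7 against 19.1 and 19.3 for − dox 2 and 3. Of the induced factors, the probe set for *Pou5f1*, the gene of Oct4, differed by 0.75 on the log2 scale (+ dox minus − dox). The one for *Sox2* differed by −0.71 and the brighter of 2 for *Klf4* by −0.58. None passed the test (limma adjusted p = 0.0566, 0.113 and 0.450). The mean of the 2 *Klf4* probe sets differed by −0.21, and with 1 array left out *Klf4* gave −0.81 to −0.12. *Pou5f1* passed without + dox 1 (0.0351) and *Sox2* without − dox 1 (0.0486). Whether these probe sets read the vector's transcript was not determined, so they do not check the labels. Of 7 melanocyte markers 0 passed the test and 0 had an unadjusted p under 0.05 (4.87% and 21.7% of all genes). *Mitf*, the master regulator of melanocytes, read 6.41, 6.83 and 6.17 in + dox arrays and 8.15, 6.87 and 6.67 in − dox arrays. The pigment genes *Mlana*, *Tyr* and *Tyrp1* lay between 3.31 and 4.03 in + dox cells and between 3.41 and 3.85 in − dox cells, near the lower quartile of the arrays. The other listed markers were brighter. *Dct* read 4.26 to 4.51 in + dox arrays and 4.21 to 4.61 in − dox arrays. *Pmel* read 5.25 to 5.42 and 5.30 to 5.43, near the array medians, and *Sox10* read 6.26 to 6.46 and 6.12 to 6.35, above them.

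Annexin genes were higher in + dox cells where they differed. *Anxa8*, *Anxa7* and *Anxa2* passed the test, and 0 annexin genes were called lower. Among all genes 3.07% were called higher and 1.80% lower in + dox cells. All 9 measured annexin genes had a change above 0, as did 51.7% of all genes. In 4 of 9 the 3 + dox arrays lay above the 3 − dox arrays with no overlap, which held for 14.3% of all genes, and 0 lay below without overlap, against 12.6% of all genes. An unadjusted p under 0.05 was found for 4 of the 9 and for 21.7% of all genes. The median change of the 9 genes was 0.36 and that of all genes 0.01 on the log2 scale. At the level of probe sets, which share a transcript within a gene and are not independent, 5 of 21 were called higher and 0 lower, against 2.34% and 1.31% of all probe sets. A change above 0 was found in 19 of 21 and in 50.4% of all probe sets. In 9 of 21 every + dox array lay above every − dox array and in 0 below, against 13.5% and 12.3% of all probe sets.

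**Figure D1:**
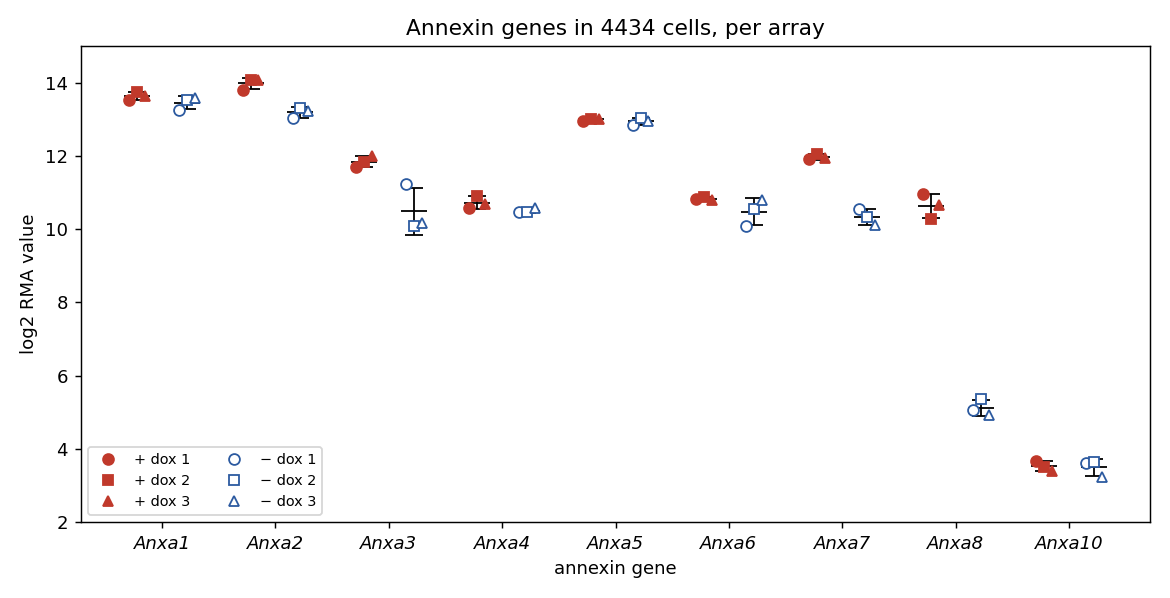
Level of each measured annexin gene (x axis) in each array, as log2 RMA values (y axis), with + dox arrays as filled red symbols left of − dox arrays as open blue symbols, and black bars for the mean and SD of 3 arrays. The *Anxa8* arrays form 2 separate bands, near 10.6 in + dox cells and near 5.1 in − dox cells, while *Anxa5* and *Anxa10* lie at about the same height in both groups.

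*Anxa8* encodes an annexin found mainly in epithelia and, in human cells, on late endosomes, first described as a vascular anticoagulant. Its probe set with the highest mean (1425789_s_at) read 10.96, 10.29 and 10.66 in + dox arrays (1, 2 and 3, as throughout), against 5.07, 5.36 and 4.94 in − dox arrays. Every + dox array was therefore over 4 log2 units above every − dox array, and the − dox values lay at or under the medians of their arrays. The change was 5.51 (SE 0.20, 95% interval 5.04 to 5.99, limma adjusted p = 8.1e-05). The other probe set (1417732_at) read 10.90, 10.25 and 10.83 in + dox arrays and 3.92, 4.09 and 3.99 in − dox arrays, the − dox values being close to the lower quartile of the arrays. Its measured change was 6.66 (SE 0.18). No detection calls were used here, so whether *Anxa8* was above background in − dox cells, and so whether these sizes are lower bounds, could not be determined, and no fold is given. Both probe sets put + dox 2 lowest among the + dox arrays. The first one carries the suffix _s_at, which marks probes shared among transcripts, possibly of several genes.

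*Anxa7*, also called synexin, fuses secretory granules in the test tube and has a long tail that binds the EF-hand proteins sorcin and Pdcd6. Its highest probe set (1416138_at) read 11.92, 12.06 and 11.94 in + dox arrays, against 10.55, 10.32 and 10.11 in − dox arrays. The + dox arrays stayed within 0.14 of each other and the groups did not overlap. The change was 1.65 (SE 0.13, 95% interval 1.33 to 1.96, limma adjusted p = 0.00284), a 3.13-fold difference. A dimmer probe set (1416137_at) gave 9.06, 8.98 and 9.02 in + dox arrays and 7.27, 7.24 and 7.18 in − dox arrays, a change of 1.79 that also passed the test over all probe sets (limma adjusted p = 0.000421). In the last one (1438764_at), + dox arrays read 7.82, 7.28 and 7.94 and − dox arrays 7.32, 6.52 and 7.01. There the groups overlapped, and the change of 0.73 did not pass (limma adjusted p = 0.169).

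*Anxa2* forms a complex with S100a10 and binds plasminogen and its activator at the cell surface. Its highest probe set (1419091_a_at) read 13.80, 14.07 and 14.07 in + dox arrays against 13.02, 13.31 and 13.22 in − dox arrays. The groups did not overlap, and array 1 was the lowest of each group. The change was 0.80 (SE 0.13, 95% interval 0.49 to 1.10, limma adjusted p = 0.0251), a 1.74-fold difference. The call was lost in fits without + dox 2, + dox 3, − dox 2 or − dox 3 (limma adjusted p = 0.107, 0.107, 0.0724 and 0.105) and kept without + dox 1 or − dox 1 (0.0141 and 0.0309). Both other probe sets also lay higher in every + dox array than in any − dox array. Of these, 1437692_x_at read 7.34, 7.64 and 7.62 in + dox arrays against 6.97, 7.12 and 7.13 in − dox arrays, a change of 0.46 (limma adjusted p = 0.0905). The suffix _x_at marks probes that may bind other transcripts. In 1437691_at, + dox arrays read 3.26, 3.78 and 3.31 and − dox arrays 3.20, 3.04 and 3.03, all under the lower quartile, with a change of 0.36 (limma adjusted p = 0.267). With the mean of its 3 probe sets in place of the highest one, *Anxa2* just missed the threshold (change 0.54, limma adjusted p = 0.0512).

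The promoters of the 3 genes that passed the test are shown because these were the members called higher. Each is the 250 bases before the annotated start in RefSeq (GRCm38.p6), 5′ to 3′ on the gene's strand. Capitals mark matches to 6 short motifs searched on both strands, namely the octamer ATGCAAAT, the Sox motif CATTGT, the Klf box CACCC, the AP-1 site TGANTCA, the TEAD motif GGAATG and the TATA box TATAAA. The search was chosen after the values were seen.
*Anxa8* (chr14:34085729-34085978, plus strand): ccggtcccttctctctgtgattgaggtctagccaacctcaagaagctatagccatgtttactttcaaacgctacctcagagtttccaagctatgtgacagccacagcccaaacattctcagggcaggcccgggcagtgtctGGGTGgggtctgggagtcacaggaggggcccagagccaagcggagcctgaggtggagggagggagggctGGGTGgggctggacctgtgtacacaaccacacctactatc
*Anxa7* (chr14:20479942-20480191, minus strand): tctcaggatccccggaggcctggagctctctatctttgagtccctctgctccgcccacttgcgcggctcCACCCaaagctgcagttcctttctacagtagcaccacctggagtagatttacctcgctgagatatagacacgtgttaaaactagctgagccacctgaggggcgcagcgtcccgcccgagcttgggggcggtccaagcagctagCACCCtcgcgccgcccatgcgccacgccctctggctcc
*Anxa2* (chr9:69453433-69453682, plus strand): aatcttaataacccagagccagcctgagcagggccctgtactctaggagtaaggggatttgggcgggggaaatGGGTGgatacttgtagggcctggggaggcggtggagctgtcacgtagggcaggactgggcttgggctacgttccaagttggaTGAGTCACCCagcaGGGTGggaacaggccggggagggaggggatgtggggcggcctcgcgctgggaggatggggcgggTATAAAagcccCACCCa

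In *Anxa8* and *Anxa7* the capitals are 2 Klf boxes each, read as GGGTG where they lie on the other strand. *Anxa2* held 4 Klf boxes, 1 AP-1 site that overlaps a Klf box in the run TGAGTCACCC, and 1 TATA box near the start. A second window of *Anxa7* (chr14:20480134-20480383), which overlaps the one shown, held 0 of these motifs. The RefSeq table gave 12 windows for 9 annexin genes, *Anxa9* and *Anxa11* included, with none for *Anxa3* and *Anxa6*. A Klf box stood in 8 of the 12, and in 52.0% of all 32851 windows. The octamer was in 0 annexin windows and in 1.60% of all windows, the Sox motif in 1 and in 10.7%, the AP-1 site in 2 and in 6.75%, the TEAD motif in 1 and in 12.6%, and the TATA box in 3 and in 12.4%. A match describes letters in the window and is no evidence of binding.

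*Anxa3*, an annexin of neutrophil granules and several epithelia, had the largest change among the members that did not pass. Its only probe set read 11.70, 11.84 and 11.99 in + dox arrays and 11.22, 10.08 and 10.16 in − dox arrays. The groups did not overlap, but − dox 1 stood over 1 log2 unit above the other − dox arrays. The change was 1.36 (SE 0.31, 95% interval 0.63 to 2.09, limma adjusted p = 0.0579), or 2.56-fold. Without − dox 1 the change was 1.72 and passed the test (limma adjusted p = 0.00265), and without any other single array it did not pass (0.0723 to 0.206).

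**Figure D2:**
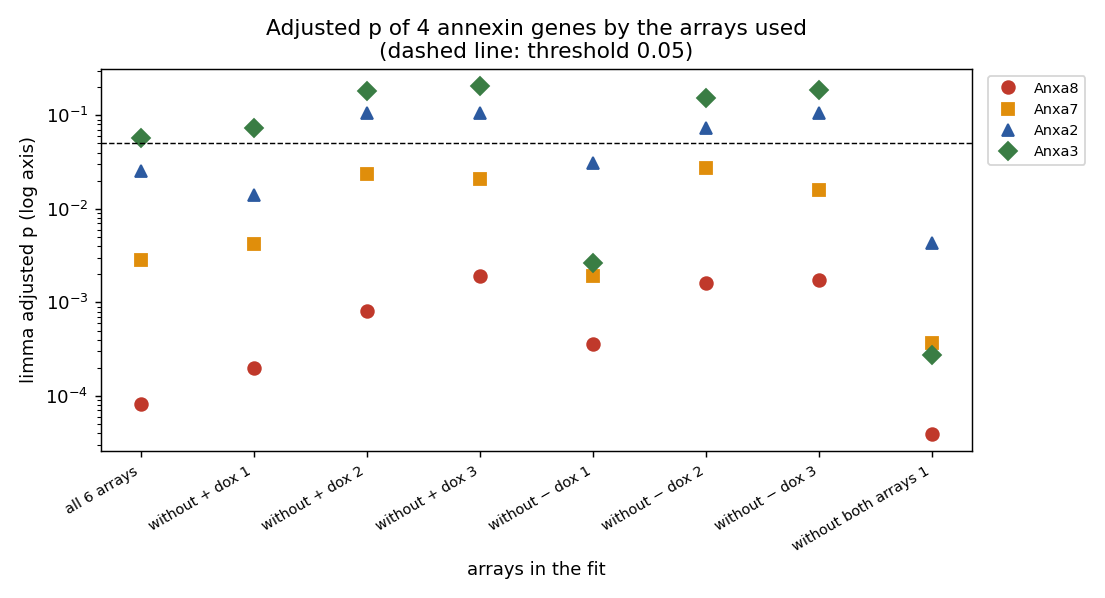
Limma adjusted p on a log axis (y axis) of *Anxa8*, *Anxa7*, *Anxa2* and *Anxa3*, with all 6 arrays and with single arrays or both arrays numbered 1 left out (x axis), and a dashed line at the threshold of 0.05. *Anxa8* and *Anxa7* lie under the line throughout, *Anxa2* lies above it without + dox 2, + dox 3, − dox 2 or − dox 3, and *Anxa3* lies under it only without − dox 1 or without both arrays numbered 1.

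*Anxa1*, *Anxa4*, *Anxa5*, *Anxa6* and *Anxa10* did not pass the test. *Anxa1*, the glucocorticoid-induced annexin that acts on formyl peptide receptors, read 13.53, 13.73 and 13.63 in + dox arrays and 13.24, 13.53 and 13.59 in − dox arrays. Its groups overlapped, with a change of 0.18 (95% interval −0.12 to 0.48, limma adjusted p = 0.487). Its dimmer probe set (1444016_at) read 7.01, 6.93 and 6.67 in + dox arrays and 6.40, 6.70 and 6.40 in − dox arrays, a change of 0.37 (limma adjusted p = 0.198). *Anxa4*, an annexin of epithelia that assembles in sheets on membranes, read 10.59, 10.91 and 10.68 in + dox arrays and 10.46, 10.47 and 10.59 in − dox arrays. The groups met at 10.59, and the change was 0.22 (95% interval −0.05 to 0.49, limma adjusted p = 0.338). Its other probe sets gave 0.19 and 0.24.

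*Anxa5* encodes the phosphatidylserine-binding protein whose labelled form is the common stain for apoptotic cells, also used in the study. Its only probe set read 12.96, 13.01 and 13.01 in + dox arrays and 12.85, 13.02 and 12.95 in − dox arrays. All 6 values lay within 0.17 of each other. The change was 0.05 with a 95% interval of −0.16 to 0.27 (limma adjusted p = 0.804), the narrowest interval among the measured annexin genes. *Anxa6*, which has an extra set of annexin repeats and recruits the Ras regulator Rasa1 and protein kinase C alpha to membranes, read 10.81, 10.89 and 10.79 in + dox arrays and 10.08, 10.54 and 10.80 in − dox arrays. Here the spread lay in the − dox cells, where array 3 lay within the + dox range and array 1 was lowest. The change was 0.36 (95% interval −0.09 to 0.80, limma adjusted p = 0.335), and its 4 probe sets split in sign. The 2 brighter ones gave 0.36 and 0.30, and the 2 dimmer ones gave −0.22 and −0.18, with overlapping groups in all 4. *Anxa10*, an annexin of the stomach lining, read 3.67, 3.50 and 3.40 in + dox arrays and 3.62, 3.64 and 3.23 in − dox arrays. These values, and those of its other probe set (2.62 to 2.86 in + dox arrays and 2.62 to 2.82 in − dox arrays), lay under the lower quartile of the arrays, so no level of *Anxa10* could be told from the dim end of the array.

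*Anxa11*, which binds Pdcd6 and S100a6 and tethers RNA granules to lysosomes, was read only by a probe set annotated to 3 gene symbols. That probe set read 8.59, 8.16 and 8.23 in + dox arrays and 8.11, 8.37 and 8.61 in − dox arrays, a difference of −0.04 with overlapping groups, which was not tested and belongs to no single gene. The remaining mouse annexins were set beside the members. *Anxa9*, which has lost the usual calcium sites, read 5.90, 5.53 and 5.69 in + dox arrays and 5.67, 6.45 and 6.50 in − dox arrays. Its change of −0.50 (limma adjusted p = 0.298) turned on − dox 1, without which it was −0.77 and passed the test (0.0307). *Anxa13*, an annexin of gut and kidney epithelium, read 3.93, 4.15 and 4.52 in + dox arrays and 4.04, 3.76 and 3.84 in − dox arrays, a change of 0.32 (limma adjusted p = 0.346) near the lower quartile.

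**Figure D3:**
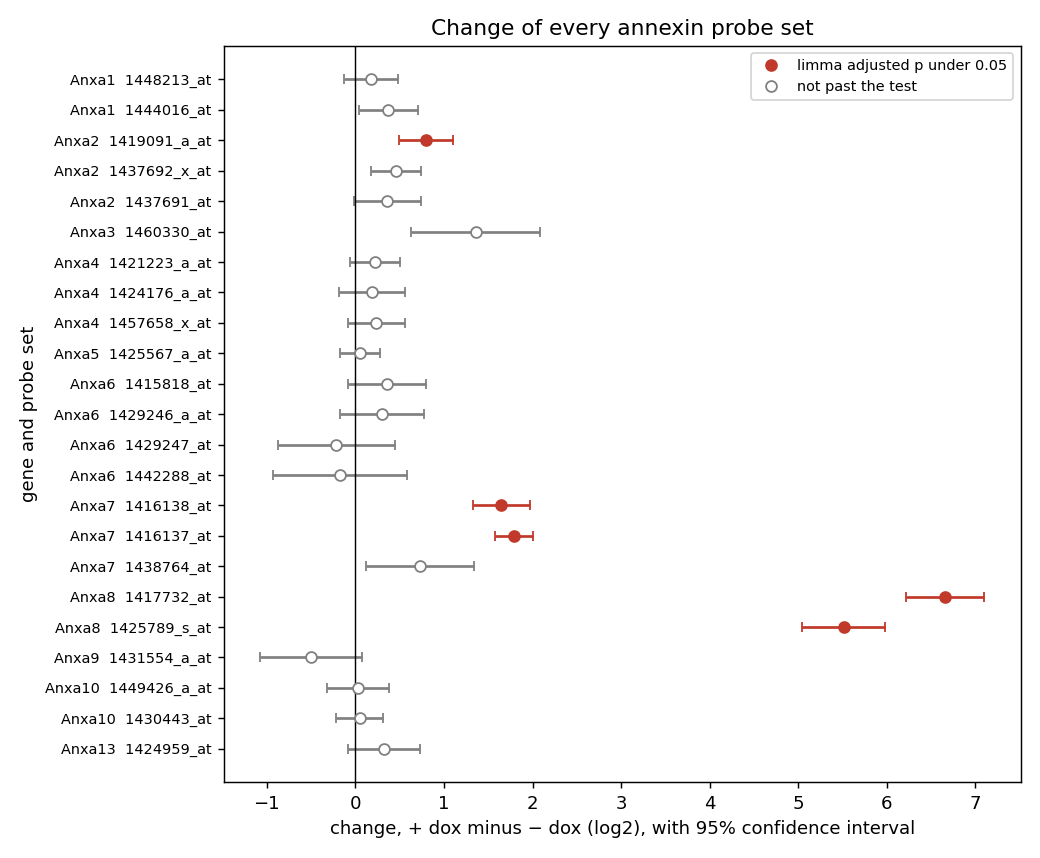
Change of each annexin probe set (y axis, by gene), as + dox minus − dox on the log2 scale (x axis), with 95% confidence intervals and filled red points where limma's adjusted p over all probe sets was under 0.05. *Anxa9* and *Anxa13* are shown beside the members. Both *Anxa8* probe sets lie beyond 5, and only *Anxa6* among the members has probe sets on both sides of 0.

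Small calcium-binding proteins of the S100 and EF-hand families dock on annexin tails. Of 6 such partners listed, 5 were measured (all but *S100a11*), and 3 were called higher and 0 lower (3.07% and 1.80% of all genes). All 5 had a change above 0 (51.7% of all genes), with a median of 0.70 on the log2 scale. *S100a10*, the partner of annexin A2, read 12.98, 12.94 and 13.16 in + dox arrays and 11.35, 12.06 and 12.16 in − dox arrays. The groups did not overlap, − dox 1 was lowest, and the change was 1.17 (SE 0.22, limma adjusted p = 0.0389). Its 3 probe sets gave 0.92 to 1.35. *S100a6*, a partner of *Anxa2*, *Anxa6* and *Anxa11* proteins, read 13.97, 14.14 and 14.12 in + dox arrays and 13.14, 13.52 and 13.48 in − dox arrays, a change of 0.70 (SE 0.13, limma adjusted p = 0.0384). *Sri*, the gene of sorcin, which binds annexin A7, read 11.03, 11.59 and 11.39 in + dox arrays and 10.50, 10.58 and 10.63 in − dox arrays, a change of 0.77 (SE 0.15, limma adjusted p = 0.0455). Its 3 probe sets ranged from 0.09 to 1.07. *Pdcd6*, a partner of annexins A7 and A11, did not pass (change 0.36). *S100a4* read 13.03, 13.09 and 13.05 in + dox arrays and 11.16, 12.95 and 13.14 in − dox arrays. Its change of 0.64 did not pass (limma adjusted p = 0.532) and rested on − dox 1, without which it was 0.01.

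These partner calls lay close to the threshold and depended on the arrays used. *S100a10* passed without − dox 1 (change 0.92, limma adjusted p = 0.0141). Without + dox 1, 2 or 3 its adjusted p was 0.0520, 0.129 or 0.149, and without − dox 2 or 3 it was 0.0977 or 0.0863. *S100a6* passed without + dox 1 (0.0380) or − dox 1 (0.0344), while its limma adjusted p was 0.143 or 0.145 without + dox 2 or 3 and 0.0916 or 0.119 without − dox 2 or 3. *Sri* passed without + dox 1 (0.00999), against 0.132 or 0.166 without + dox 2 or 3 and 0.0651, 0.128 or 0.143 without − dox 1, 2 or 3.

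Annexins also act beside proteins that reseal the plasma membrane. Of 11 such genes, all measured, 2 were called higher and 0 lower (3.07% and 1.80% of all genes), and the median change was 0.20. *Capns1*, the small subunit of the calpain proteases that open the cortical cytoskeleton at wounds, read 11.21, 11.67 and 11.85 in + dox arrays and 10.58, 10.69 and 10.63 in − dox arrays, a change of 0.94 (SE 0.17, limma adjusted p = 0.0348). *Capn2*, the large subunit of m-calpain, read 12.09, 12.42 and 12.48 in + dox arrays and 11.20, 11.70 and 11.60 in − dox arrays, a change of 0.83 (SE 0.17, limma adjusted p = 0.0486). In both genes + dox 1 was the lowest + dox array and still lay above every − dox array. Each passed in 1 of 6 fits with an array left out, that without + dox 1 (limma adjusted p = 0.00454 for *Capns1* and 0.0307 for *Capn2*). For *Capns1* the others gave 0.134 and 0.112 without + dox 2 and 3, and 0.0502, 0.109 and 0.132 without − dox 1, 2 and 3. For *Capn2* they gave 0.169 and 0.178 without + dox 2 and 3, and 0.0506, 0.0994 and 0.142 without − dox 1, 2 and 3.

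Among 7 of 8 other binding partners measured (all but *Fpr1*), 0 passed the test, against 4.87% of all genes. An unadjusted p under 0.05 was found for 2, a share near the 21.7% of all genes, and the median change was 0.10. *Ahnak*, a giant scaffold bound by the complex of annexin A2 and S100a10, read 12.52, 12.99 and 13.24 in + dox arrays and 12.10, 12.04 and 12.25 in − dox arrays. Its groups did not overlap, and its change of 0.79 missed the threshold (limma adjusted p = 0.0692). Without + dox 1 it passed (0.98, limma adjusted p = 0.0119). *Rasa1*, the Ras regulator bound by annexin A6, read 9.48, 9.38 and 9.20 in + dox arrays and 9.60, 9.70 and 9.71 in − dox arrays, with every + dox array below every − dox array and a change of −0.32 (limma adjusted p = 0.149).

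Genes for the exposure and recognition of phosphatidylserine, the lipid that annexins bind, had no common direction. Of 14 genes measured, 0 were called higher and 1 lower (3.07% and 1.80% of all genes). An unadjusted p under 0.05 was found for 4 of them (21.7% of all genes), and the median change was 0.03. The gene called lower was *Edil3*, whose secreted product bridges phosphatidylserine and integrins. It read 4.49, 4.11 and 3.54 in + dox arrays and 7.48, 6.70 and 7.19 in − dox arrays, and the groups were over 2 log2 units apart. It fell by 3.08 in + dox cells (SE 0.29, limma adjusted p = 0.00543), to values around the lower quartile of the arrays, so this size may be a lower bound. Of its 6 probe sets 2 passed and 4, all dim, lay between −0.04 and −0.01. *Mertk*, a receptor kinase for bridged phosphatidylserine, read 6.31, 6.11 and 6.26 in + dox arrays and 6.62, 7.39 and 7.24 in − dox arrays. Its change of −0.86 missed the threshold (limma adjusted p = 0.0690) and passed without − dox 1 (−1.09, 0.00942).

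**Figure D4:**
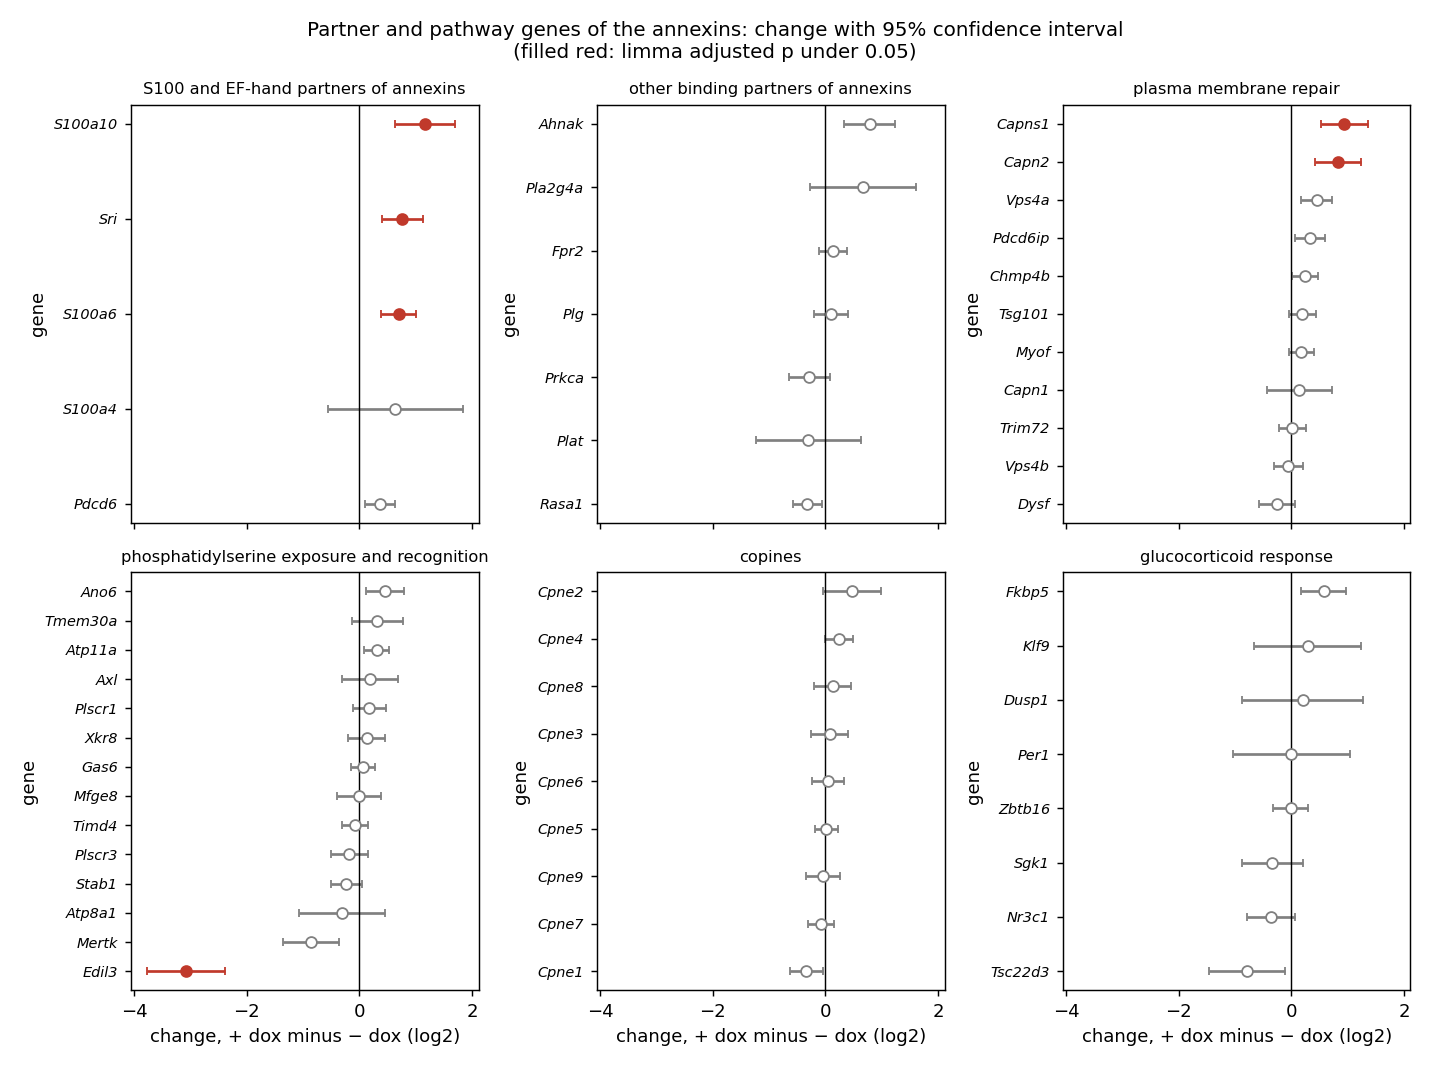
Change of each measured gene (y axis) of 6 lists of annexin partners and related genes, as + dox minus − dox on the log2 scale (x axis), with 95% confidence intervals and filled red points where limma's adjusted p over all genes was under 0.05. All 5 S100 and EF-hand partners lie right of 0, and *Edil3*, at −3.08, is the only filled point left of 0.

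Copines, another family of calcium-dependent phospholipid-binding proteins, served for comparison. Of 9 measured 0 passed the test and 1 had an unadjusted p under 0.05, with a median change of 0.04. Among all genes 4.87% passed and 21.7% had an unadjusted p under 0.05, so counts this small in a short list show no difference from all genes. *Cpne1* read 10.21, 10.11 and 9.90 in + dox arrays and 10.56, 10.37 and 10.31 in − dox arrays, a change of −0.34 (limma adjusted p = 0.173). *Cpne4*, at 3.66, 3.84 and 3.64 in + dox arrays and 3.52, 3.52 and 3.37 in − dox arrays, lay at the dim end with a change of 0.24 (limma adjusted p = 0.235). Its other probe set (1429443_at), also dim, gave −0.28, so no direction is read for *Cpne4*. Of 8 genes of the glucocorticoid response, which induces *Anxa1* in many tissues, 0 passed (4.87% of all genes). An unadjusted p under 0.05 was found for 2 of them (21.7% of all genes), and the median change was 0.00. *Fkbp5* read 9.86, 10.25 and 10.12 in + dox arrays and 9.27, 9.77 and 9.47 in − dox arrays (change 0.57, limma adjusted p = 0.107). *Tsc22d3* read 9.08, 9.07 and 8.39 in + dox arrays and 10.13, 9.25 and 9.51 in − dox arrays (change −0.78, limma adjusted p = 0.172). The genes of lowest p in the glucocorticoid list thus had opposite signs.

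Several annexins are expressed by epithelial, mesothelial and blood cells, so markers of such cells were read beside them. Of 6 keratinocyte markers measured, *Krt14* alone was called higher (3.07% of all genes). It read 8.21, 7.68 and 8.77 in + dox arrays, against 4.67, 4.47 and 4.50 in − dox arrays. These values are from 1423935_x_at, whose suffix marks probes that may bind other transcripts. Its change was 3.67, against 2.46 for 1460347_at and −0.11 for 1455573_at, where the groups overlapped. The mean level of the 6 was 5.16 to 5.31 in + dox arrays and 4.46 to 4.65 in − dox arrays. It rested mostly on *Krt14*, since the other measured markers changed by −0.15 to 0.55. *Krt5*, the usual partner of *Krt14*, stayed between 4.67 and 4.69 in + dox arrays and between 4.58 and 4.86 in − dox arrays. Of 5 mesothelial markers, *Msln* alone was called higher (3.07% of all genes). It read 11.84, 11.91 and 11.87 in + dox arrays, against 4.52, 4.61 and 4.27 in − dox arrays, under the array medians. Its measured change was 7.41, which may be a lower bound. The mean of the 5 was 5.75 to 5.86 in + dox arrays and 4.09 to 4.33 in − dox arrays. It rested mostly on *Msln*, since the other mesothelial markers changed by 0.08 to 0.36. *Wt1*, which defines mesothelium, was at 3.40 to 3.52 in + dox arrays and 3.25 to 3.51 in − dox arrays, under the lower quartile. Of 6 macrophage, 5 endothelial and 6 fibroblast markers 0 passed the test, with 0, 1 and 1 at an unadjusted p under 0.05. The shares of all genes were 4.87% and 21.7%. Mean levels of these lists were 4.72 to 5.24, 4.46 to 4.95 and 4.74 to 4.82 in + dox arrays and 4.43 to 4.76, 4.07 to 4.32 and 4.52 to 4.72 in − dox arrays. The endothelial marker with an unadjusted p under 0.05 was *Tek* and the fibroblast marker *Dcn*, both without overlap. *Tek* read 7.01, 4.58 and 4.49 in + dox arrays and 3.87, 3.80 and 3.58 in − dox arrays (change 1.61, limma adjusted p = 0.219). *Dcn* read 7.13, 7.55 and 7.68 against 6.36, 6.78 and 6.68 (change 0.85, limma adjusted p = 0.0525). *Ptprc*, which marks all leukocytes, was at 2.86 to 3.08 in + dox arrays and 2.78 to 2.92 in − dox arrays, also under the lower quartile. *Cd68* read 6.40, 7.06 and 7.12 in + dox arrays and 7.14, 4.91 and 4.82 in − dox arrays, so − dox 1 was its highest − dox array. In *Itgam* (3.20, 3.26 and 3.33 in − dox arrays) and *Lyz2* (5.33, 5.59 and 5.36) − dox 1 was the lowest − dox array. The part of these cell types in the annexin values was not tested.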

How the data were processed

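Total RNA of 6 samples was hybridised to Affymetrix Mouse Genome arrays, 3 per group, grouped by their labels. The deposited values are log2 values that the authors made from the scanner files by RMA, which corrects background, quantile-normalises arrays and summarises probes, in Chipster. Its version and the chip definition are not given in the sources used here, and the log2 scale was read from the use of RMA and from values between 2.08 and 14.44. With 3 arrays a group, that number limits precision.

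Of 45101 probe sets, 34945 had 1 gene symbol in the platform annotation of 2016, 932 had several and 9211 were not listed. Those with several or none were not tested. Two-sided limma tests (version 3.58.1, R 4.3.3, functions lmFit and eBayes) had group as the single term and were adjusted by Benjamini-Hochberg over 18193 genes or over all probe sets with 1 gene, with calls under 0.05. A change is + dox minus − dox. The fitting code was tested on simulated data, which is a check of the code and not of the results from these arrays.

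All members were named. From each partner list up to 4 called genes were named, and lists with fewer than 2 calls also gave their 2 genes of lowest p. Marker genes, the induced factors, *Pdcd6* and *S100a4* were named after their values were seen. The members and lists were chosen with earlier results of these data known. Same-numbered arrays did not pair (correlations of deviations −0.12, −0.22 and 0.08). Protein sequences are not used here.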

Additional observations from a re-analysis of the deposited data

How the results depend on the processing

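Annexin genes called are given here with the share of all genes called in the same setting in brackets. They numbered 3 with all arrays (4.87%) and 2 to 4 when 1 array was left out (0.649% to 9.07%). There were 4 without both arrays numbered 1 (20.1%). Without the dimmest 40% of genes there were also 4 (7.73%), and *Anxa3* then passed (limma adjusted p = 0.0491). With the mean of all probe sets there were 2 (4.33%), as at a threshold of 0.01 (0.704%). Tested against a 2-fold change (limma treat), only *Anxa8* passed (0.280%). At an unadjusted p under 0.05 with a 2-fold change they were *Anxa3*, *Anxa7* and *Anxa8*, without *Anxa2* (4.75%). Annexin probe sets called numbered 5, where 3.65% of all probe sets were called. With 1 array left out they numbered 4 to 6, where 0.412% to 7.03% of all probe sets were called. *Anxa8* passed under all 18 alternatives, and *Anxa7* under all but the 2-fold test (adjusted p = 0.241). Array numbers are shared by the groups but gave no pairing. With the number as a replicate block, 3 annexin genes and 4 annexin probe sets passed, against 1.67% of all genes and 1.41% of all probe sets. In all, 303 genes passed with the block and 886 without it. With the block *S100a10*, *S100a6*, *Sri*, *Capns1* and *Capn2* no longer passed (limma adjusted p = 0.0504 to 0.0812). Over all genes the calls numbered 118 to 1650 with 1 array left out, 3649 without both arrays numbered 1, 128 at the 0.01 threshold and 51 against a 2-fold change. Of 31 genes refitted under the alternatives, the sign turned in 3. *Cpne4* was −0.0183 with the mean of probe sets, −0.28 with the most variable probe set, −0.52 without both arrays numbered 1 and −0.50 to 0.27 with 1 array left out. The probe set with the highest mean was picked anew in each fit. The negative *Cpne4* values with arrays left out are those of its other probe set (1429443_at). *Anxa6* was −0.18 with the most variable probe set, which is the value of 1442288_at, one of its dimmer probe sets. *Anxa10* was −0.11 to 0.10 with 1 array left out. Its change with all arrays was 0.03, from values under the lower quartile, and its sign depended on the array left out.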
